A study of Mus musculus with 9 samples.

Results

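The genes examined were the axon guidance ligands and receptors of mouse, chosen by symbol: the semaphorins (classes 3 to 7), plexins, neuropilins, ephrins, Eph receptors, netrins, the netrin receptors Dcc and Unc5a to Unc5d, the Slits and the Robo receptors. The rule found 72 of the 54325 gene symbols in the table of counts, of which 3 (Plxna4os1, Plxna4os2 and Plxna4os3) were antisense RNAs caught by their symbol and 69 were ligands or receptors. Their 422 transcripts all matched GENCODE M21 (GRCm38) by identifier and version.

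A growing axon reads its path from secreted and membrane-bound cues. Class 3 semaphorins are secreted and bind neuropilins, which signal through plexins, whereas most other semaphorins bind plexins directly. Netrins act through Dcc and Unc5 receptors, Slits through Robo receptors, and ephrins through Eph receptors on a neighbouring cell. UPF1 is the RNA helicase at the centre of nonsense-mediated mRNA decay (NMD), and its phosphorylated form (p-UPF1) accumulates on mRNAs that are being committed to decay. A long 3′ UTR, an exon junction well past the stop codon and upstream open reading frames are the textbook features of an mRNA that NMD can reach.

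The material was N2A, 1 mouse neuroblastoma line, and all 9 libraries came from cells that had received 200 nM okadaic acid, a phosphatase inhibitor, for 2 h. There was no library of untreated cells. The 3 groups were input RNA, RNA recovered with an antibody to p-UPF1 (p-UPF1 IP) and RNA recovered with rabbit IgG as the control antibody (rIgG IP), with 3 libraries in each. In all of them, the RNA had been digested with RNase I and only short fragments went into sequencing, so that a count is a footprint-sized fragment assigned to a transcript, and counts were summed per gene here. The sources used here do not say whether the 3 libraries of a group came from separate cultures, and p-values measure the spread between these libraries only.

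Total counts were 25184464 to 29857955 in the input, 5312526 to 6246110 in the p-UPF1 IP and 79010 to 474491 in the rIgG IP. The smallest share that 3 counts can show was therefore 0.1 to 0.119 CPM (a count divided by its library total, before any TMM scaling) in the input, 0.48 to 0.565 CPM in the p-UPF1 IP and 6.32 to 38 CPM in the rIgG IP, for counting error only. The axon guidance genes together took 8548 to 8945 counts of an input library, 2630 to 3263 of a p-UPF1 IP library and only 25 to 138 of an rIgG IP library. Among markers of neuroblastoma and neurons, Tubb3 had 1254 to 1363 counts in the input libraries, Stmn2 1214 to 1413, Gap43 409 to 449 and Hand2 294 to 300. Others of the list were low, with Nefl at 0 in every input library, Nefm at 0 to 1, Dbh at 3 to 13 and Th at 17 to 23. Summed markers of astrocytes (0 to 2), microglia and blood (3 to 4) and fibroblasts (0 to 2) were close to 0, and those of oligodendrocytes (37 to 53) and endothelium (36 to 41) were low.

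N2A cells expressed a limited set of these cues and receptors. Of the 72 genes, 5 (Epha4, Epha6, Ephb1, Ephb6 and Robo4) had no count in any library and 24 had over 100 input counts over the 3 libraries. The 10 most-counted genes held 71.4% of the counts of all 72 in the input. Per kilobase of the most-counted coding transcript, the input level was 7.58 CPM for Unc5b, 5.70 for Efna5, 4.69 for Unc5c, 4.66 for Plxnb2, 4.57 for Sema4d, 4.31 for Nrp1, 4.18 for Nrp2 and 3.47 for Slit2. In such bulk RNA, fewer cells that express a gene and less RNA per cell cannot be told apart.

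Receptors of both Slits and netrins were hardly counted while Slits and other netrin receptors were. The 4 Robo genes had 7 input counts between them, and Robo3, the most counted, had 1, 2 and 2. Dcc, the attractive netrin receptor, had 0, 1 and 0 counts in the input against 3, 0 and 1 in the p-UPF1 IP. Neither a Robo gene nor Dcc reached the summed count of 10 that the test required, so that the p-UPF1 IP could not be compared with the input for them at this depth. The antisense RNAs of Plxna4 had 11 input counts in all and none in either IP.

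To see how far one member of a family can be read apart from another, the coding sequences of 2 pairs of paralogues are shown where they encode the longest run of identical residues within 1 exon of each gene. Slit3 and Slit2 encode secreted ligands of Robo receptors, and Unc5b and Unc5c encode netrin receptors. Capitals mark the bases at which the genes of a pair differ, and the sequences are from GENCODE M21 transcripts on GRCm38, given 5′ to 3′ on the coding strand.
Slit3, exon 19, chr11:35632821-35632874, plus strand: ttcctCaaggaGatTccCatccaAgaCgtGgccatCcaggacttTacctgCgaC
Slit2, exon 21, chr5:48237365-48237418, plus strand: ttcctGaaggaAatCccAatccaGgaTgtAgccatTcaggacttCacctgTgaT
Unc5b, exon 6, chr10:60778205-60778270, minus strand: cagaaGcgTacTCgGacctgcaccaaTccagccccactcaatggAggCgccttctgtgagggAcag
Unc5c, exon 6, chr3:141768509-141768574, plus strand: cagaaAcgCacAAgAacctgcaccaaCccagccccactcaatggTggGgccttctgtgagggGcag
Over 18 shared residues, Slit3 and Slit2 differed at 11 bases, all of them at the last position of a codon. Over 22 shared residues, Unc5b and Unc5c differed at 9 bases, 8 of them at the last position of a codon. The longest run of bases shared by the most-counted coding transcripts was 20 for the Slit pair and 27 for the Unc5 pair. The GC content of the stretch shown was 53.7% for Slit3 and 46.3% for Slit2, and 60.6% for both Unc5b and Unc5c. A stretch of Nrp2 and Nrp1 was found in the same way and is not shown. Over its 9 shared residues, the GC content was 48.1% for Nrp2 and 55.6% for Nrp1.

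Relative to the input, the axon guidance genes split, with members of the same family on opposite sides. Of the 72 genes, 46 had a summed count of at least 10 and were tested, and 26 (with at most 8 counts) were not. The sum runs over both groups, so that a gene could be tested only through the group in which it was high. At a Benjamini-Hochberg adjusted p under 0.05 in edgeR's quasi-likelihood test, 19 of the 46 were higher in the p-UPF1 IP (41.3%, against 26.3% of all 16919 genes tested) and 11 were lower (23.9%, against 35.7% of all). With a log2 fold change beyond 1 as well, the thresholds that the study used for its IP, 13 were enriched (28.3%, against 17.3% of all) and 4 were depleted (8.70%, against 26.5% of all). Of the enriched genes, Epha5, Ephb3 and Efnb3 had under 10 input counts. Of the depleted genes, Epha1, Epha2 and Sema5b had no p-UPF1 IP count. Without any test, the 3 p-UPF1 IP libraries lay above the 3 input libraries for 21 of the 46 genes (28.0% of all genes) and below them for 13 (42.1% of all genes), and the groups overlapped for 12.

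The median log2 fold change of the 46 genes was 0.43, against -0.42 for all genes tested, and 33 of the 46 lay above the latter. Both medians include genes with no count in 1 group. With those genes set to the bound that 3 counts over the group give, the medians were 0.43 and -0.32. Scaling to library totals in place of TMM brought the all-gene median to -0.01 and the split of the 46 genes from 19 higher and 11 lower to 25 higher and 5 lower. Offsets that follow the GC content of a gene's most-counted transcript, an alternative chosen after seeing the data, turned it to 9 higher and 14 lower. With these offsets the medians came close, at -0.22 for the 46 genes and -0.38 for all genes tested. Of the 19 genes called higher, 9 kept that call under the GC offsets, as did 10 of the 11 called lower, and no gene was called in the opposite direction.

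**Figure D1:**
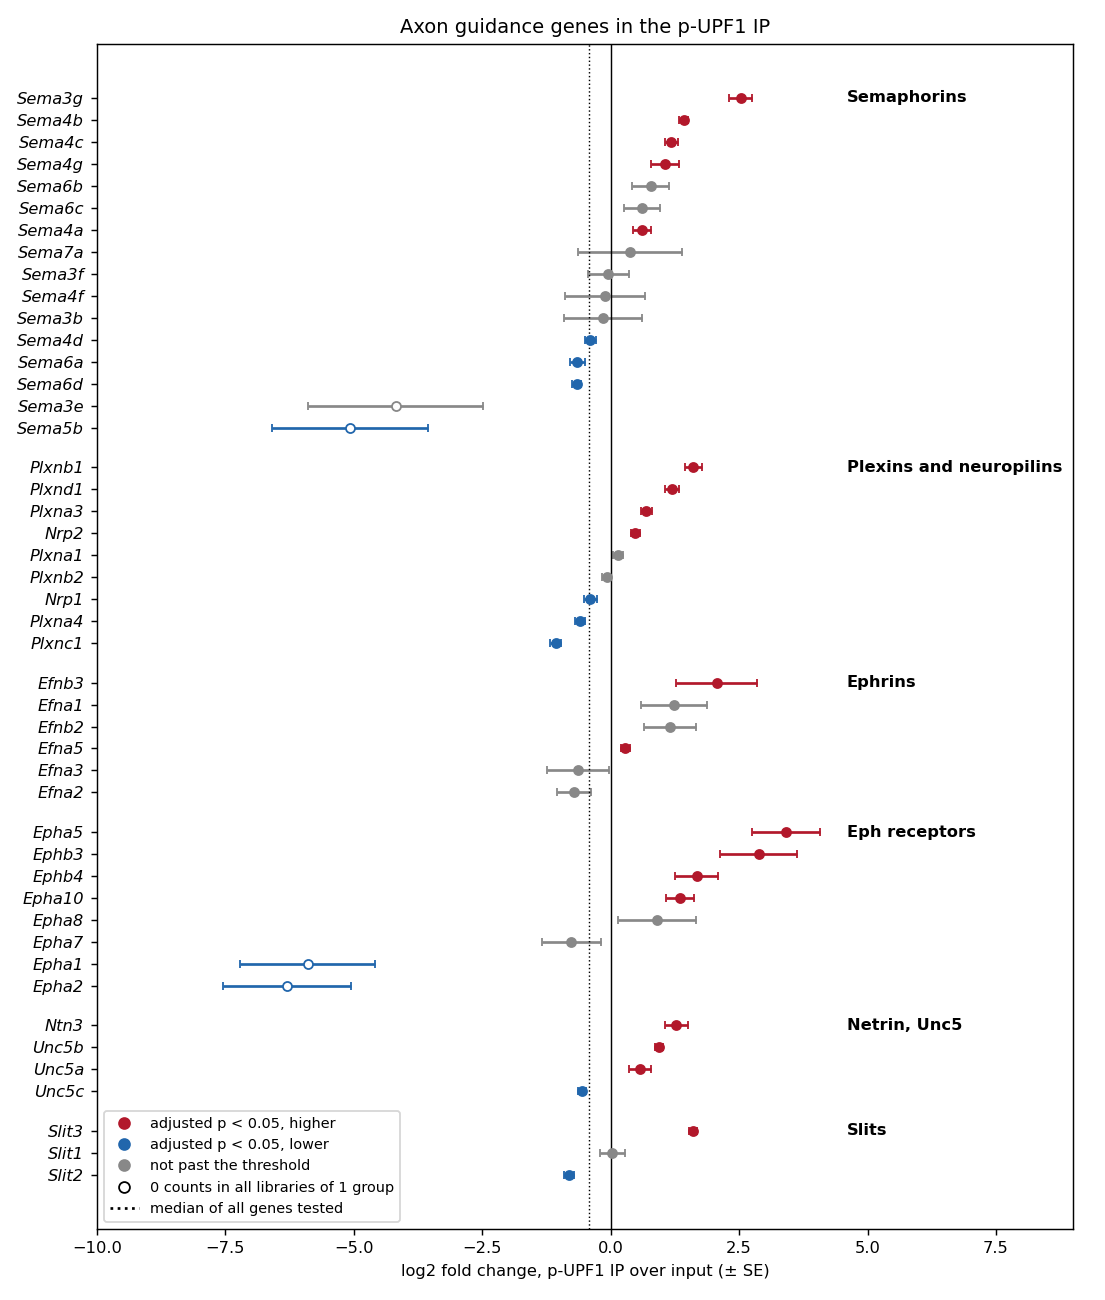
Log2 fold change of the 46 tested axon guidance genes in the p-UPF1 IP over the input (x axis; bars, SE; 3 libraries per group), grouped by role and sorted within each group. Red points passed an adjusted p of 0.05 as higher (19) and blue points as lower (11), open points had 0 counts in all libraries of 1 group, and the dotted line is the median of all genes tested (-0.42).

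Among the secreted ligands, the Slits gave the clearest split. Slit3 had 289, 257 and 288 counts in the input libraries and 201, 270 and 259 in the much shallower p-UPF1 IP libraries. Slit2 went the other way, with 679, 604 and 605 input counts against 89, 118 and 105. As TMM-scaled CPM, Slit3 was 11.9 ± 0.605 (SD, n = 3) in the input and 35.9 ± 1.59 in the p-UPF1 IP, and Slit2 was 26.9 ± 2.62 and 15.4 ± 0.739. For neither gene did the groups overlap. The log2 fold change was 1.60 ± 0.08 (SE) for Slit3 (edgeR adjusted p = 5.79e-08) and -0.81 ± 0.10 for Slit2 (edgeR adjusted p = 4.47e-05). Both calls held under all 14 alternatives. Slit1, the third ligand, had 56, 42 and 52 input counts and did not pass the test (log2 fold change 0.03 ± 0.24, edgeR adjusted p = 0.933).

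Netrin genes were little expressed, and Ntn3, a secreted netrin, was the only 1 of 4 tested. It had 70, 64 and 50 input counts against 33, 59 and 38 in the p-UPF1 IP, a log2 fold change of 1.28 ± 0.22 (edgeR adjusted p = 5.62e-04) that fell to 0.43 under the GC offsets, without passing the test (adjusted p = 0.113). Its Unc5 receptors split as well. Unc5b had 1099, 1009 and 1010 counts in the input against 523, 617 and 588 in the p-UPF1 IP, and Unc5c had 1097, 1022 and 1056 against 179, 233 and 214. The pair was therefore counted alike in the input and apart in the p-UPF1 IP, without overlap between the groups for either gene. The log2 fold change was 0.94 ± 0.08 for Unc5b (edgeR adjusted p = 2.55e-06) and -0.55 ± 0.08 for Unc5c (edgeR adjusted p = 1.13e-04). Unc5b was higher under every alternative, but by only 0.18 under the GC offsets, and Unc5c lost its call under library totals and under the GC offsets. With TMM, the value of Unc5c lay near the median of all genes tested (-0.42), unlike that of Slit2 (-0.81). Unc5a, with 92, 67 and 60 input counts against 28, 31 and 35, was called higher (0.57 ± 0.22, edgeR adjusted p = 0.042), and 8 of the 14 alternatives ended that call, among them leaving out any p-UPF1 IP library or input library 2 or 3 (0.42 to 0.66).

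Class 4 semaphorins, transmembrane proteins that bind plexins, were mostly higher. All 6 were tested, 4 were higher (against 26.3% of all genes), 1 was lower (against 35.7%) and 1 did not pass. Under the GC offsets 2 were higher and 1 was lower. A difference of so few genes from all genes was not tested. Sema4b had 160, 150 and 159 input counts against 101, 140 and 122 in the p-UPF1 IP, a log2 fold change of 1.42 ± 0.09 (edgeR adjusted p = 3.92e-07). Sema4c had 144, 122 and 118 against 72, 97 and 83 (1.18 ± 0.13, edgeR adjusted p = 1.93e-05). Sema4g (1.06 ± 0.27) and Sema4a (0.61 ± 0.18) were higher too, and both lost the call under the GC offsets. Sema4d, the most-counted semaphorin, was lower, with 461, 499 and 453 input counts against 85, 121 and 105 (-0.40 ± 0.10, edgeR adjusted p = 7.55e-03). Its value was 0.01 with library totals, and without p-UPF1 IP library 1 it was -0.32 (adjusted p = 0.0503).

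None of the 4 class 6 semaphorins, transmembrane ligands of class A plexins, was higher, and 2 were lower. Of all genes tested, 26.3% were higher and 35.7% lower, and a difference of so few genes from all was not tested. Sema6d had 364, 339 and 362 input counts against 55, 65 and 74 (-0.66 ± 0.09, edgeR adjusted p = 1.38e-04). Sema6a had 194, 212 and 194 against 27, 43 and 41 (-0.65 ± 0.14, edgeR adjusted p = 2.39e-03). Scaling to library totals ended the calls of both and made the less counted Sema6b and Sema6c (0.78 ± 0.37 and 0.61 ± 0.34 with TMM) higher, so that the direction of this class rests on the scaling. Among class 3 semaphorins, Sema3g had 19, 20 and 19 input counts against 32, 34 and 31 in the shallower p-UPF1 IP. Its log2 fold change of 2.53 ± 0.22 (edgeR adjusted p = 3.65e-06) held under all 14 alternatives. Over the rIgG IP, where it had 1, 0 and 1 counts, Sema3g did not pass (1.12 ± 0.89, edgeR adjusted p = 0.383). It did not pass in the rIgG IP over the input either (1.67 ± 1.00). Sema3b, Sema3e and Sema3f did not pass the test, and Sema3a, Sema3c and Sema3d had at most 2 counts in all.

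Plexins, the signalling receptors of the semaphorins, ranged from higher to lower within the family. Plxnb1 had 54, 68 and 58 input counts against 40, 61 and 59 in the p-UPF1 IP, and Plxnd1 had 143, 138 and 140 against 64, 107 and 109. Plxnc1 had 444, 422 and 466 against 43, 73 and 68. None of the 3 had groups that overlapped in CPM. The log2 fold change was 1.61 ± 0.17 for Plxnb1 (edgeR adjusted p = 1.33e-05), 1.19 ± 0.13 for Plxnd1 (edgeR adjusted p = 2.23e-05) and -1.07 ± 0.11 for Plxnc1 (edgeR adjusted p = 1.19e-05). Plxna3 was higher (0.69 ± 0.11) and Plxna4 lower (-0.60 ± 0.10). Under the GC offsets Plxnd1 (0.27) and Plxna3 (0.22) lost their calls, and with library totals Plxna4 did (-0.20). Plxnb2 and Plxna1, the most-counted plexins, did not pass (-0.07 ± 0.09 and 0.14 ± 0.10), and their groups overlapped. With library totals both were called higher (0.33 and 0.55), and under the GC offsets both were called lower (-0.71 and -0.51).

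Neuropilins, the co-receptors that bind class 3 semaphorins, also split. Nrp2 had 381, 425 and 433 input counts against 156, 175 and 167 in the p-UPF1 IP, and Nrp1 had 387, 342 and 359 against 57, 100 and 83. In CPM, every p-UPF1 IP library was above the input for Nrp2 and below it for Nrp1. The log2 fold change was 0.48 ± 0.09 for Nrp2 (edgeR adjusted p = 7.80e-04) and -0.40 ± 0.12 for Nrp1 (edgeR adjusted p = 0.0176). Nrp2 lost its call under the GC offsets (0.22, adjusted p = 0.0553). Nrp1 lost its call in 4 of the 14 alternatives, 3 of which left out 1 library: p-UPF1 IP 1 (-0.24), p-UPF1 IP 3 (-0.36) or input 1 (-0.32). Library totals were the other (0.01). With TMM, the value of Nrp1 lay close to the median of all genes tested (-0.42), as did that of Sema4d.

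**Figure D2:**
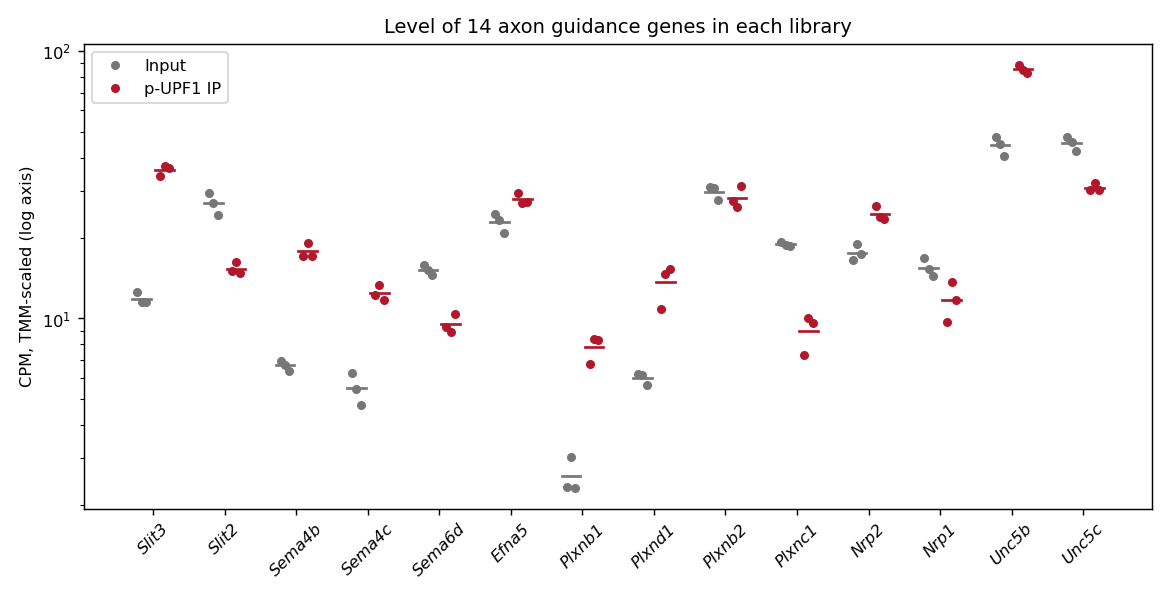
Level in each library of 14 axon guidance genes as TMM-scaled CPM (log y axis), with input in grey, p-UPF1 IP in red and a line at each mean (n = 3). Slit3 and Slit2 change places between the groups, Unc5b and Unc5c are level in the input and apart in the p-UPF1 IP, and for Plxnb2 the groups overlap.

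Of the ephrins, the membrane-bound ligands, Efna5 was the only well-counted gene. It had 566, 524 and 522 input counts against 174, 197 and 194 in the p-UPF1 IP, a log2 fold change of 0.28 ± 0.09 (edgeR adjusted p = 0.0173) without overlap between the groups. The call was lost when genes were not filtered (0.20, adjusted p = 0.113). Efnb3 was called higher on 3, 1 and 4 input counts against 4, 1 and 5 (2.06 ± 0.79, edgeR adjusted p = 0.044), its groups overlapped in CPM, and 8 of its 13 alternatives ended the call, among them leaving out p-UPF1 IP library 1 or 3 or any input library (1.72 to 2.40). Its input counts alone, 8 in all, fell short of the 10 required. The other 4 tested ephrin genes did not pass.

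Eph receptors were counted so rarely that the family rests on few fragments, with 237 input counts for all 14. Epha5 had 1, 3 and 1 input counts and 5, 7 and 5 in the p-UPF1 IP (3.41 ± 0.66, edgeR adjusted p = 1.24e-03). Ephb3 had 4, 0 and 5 against 6, 6 and 8 (2.88 ± 0.74, edgeR adjusted p = 6.82e-03). Both were higher under all 14 alternatives, and their p-UPF1 IP libraries stood above every input library. Their input counts alone, 5 and 9 in all, fell short of the summed count that the test required. They entered it only with their p-UPF1 IP counts, so that being tested and being higher were not independent. Over the rIgG IP, where neither had a count, Epha5 and Ephb3 did not pass (edgeR adjusted p = 0.398 and 0.356). Over the input, Ephb4 (1.67 ± 0.41) and Epha10 (1.36 ± 0.27) were higher as well and lost the call under the GC offsets.

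Epha2, Epha1 and the semaphorin Sema5b had no count in any p-UPF1 IP library and were tested through their input counts alone. Epha2 had 19, 12 and 14 input counts, Epha1 11, 13 and 10, and Sema5b 5, 7 and 7. Against 3 counts over the p-UPF1 IP group, they were at least 4.33-fold, 3.27-fold and 1.83-fold lower. The adjusted p in edgeR was 2.49e-03, 4.69e-03 and 0.0192. Nearly all input counts of Epha2 sat in a processed transcript of 969 nt (ENSMUST00000149002.1, with 19, 12 and 13), not in its receptor mRNA. Sema5b lost its call in DESeq2 and with the replicate number as a block (adjusted p = 0.0735 and 0.0563).

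The side on which a gene of a family fell could change with the scaling, but the ratio of the counts of 2 genes in 1 library is free of any factor per library. It is not free of the GC offsets, which differ between genes. Under these, the log2 fold change was 0.18 for Unc5b and -0.10 for Unc5c, and 0.98 for Slit3 and -0.73 for Slit2. The pairs below were the highest and the lowest log2 fold change of a family among genes with at least 100 input counts, so that the direction was fixed by their choice and the ratios are a description, with no test. Slit3 to Slit2 was 0.426, 0.425 and 0.476 in the input against 2.26, 2.29 and 2.47 in the p-UPF1 IP, a 5.29-fold change. Unc5b to Unc5c was 1.00, 0.987 and 0.956 in the input against 2.92, 2.65 and 2.75 in the p-UPF1 IP, a 2.82-fold change. For these pairs, replicate libraries lay much closer together than the groups. Plxnb1 to Plxnc1 changed 6.51-fold, Sema4b to Sema6d 4.24-fold and Nrp2 to Nrp1 1.87-fold, the last with p-UPF1 IP libraries at 2.74, 1.75 and 2.01 against input libraries at 0.984, 1.24 and 1.21. In the rIgG IP, Slit3 to Slit2 was 1.00, 0.75 and 1.00 and Unc5b to Unc5c 0.615, 0.333 and 1.00, on counts of 1 to 26 per gene and library.

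**Figure D3:**
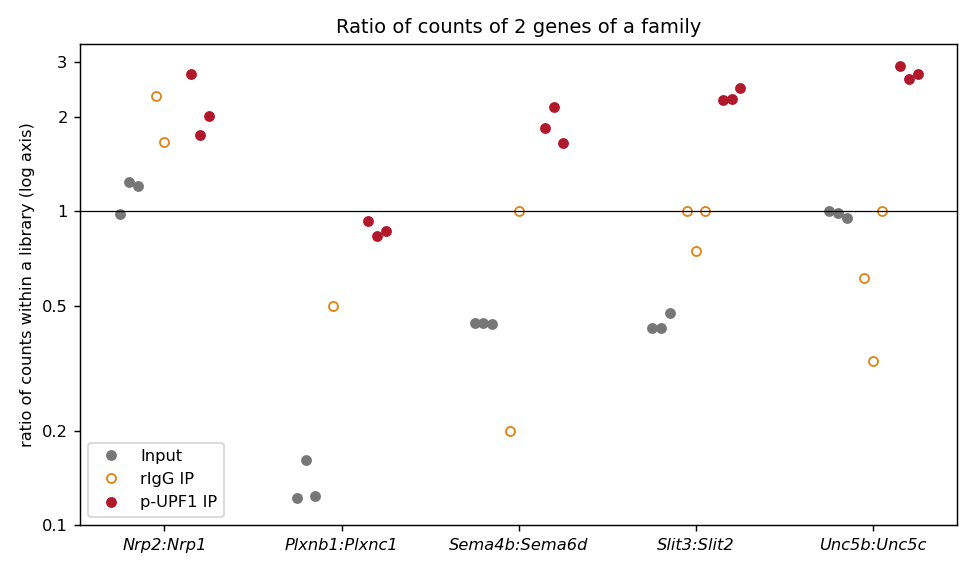
Ratio of the counts of 2 genes of a family in each library (log y axis) for input (grey), rIgG IP (open orange) and p-UPF1 IP (red), with 3 libraries per group and no rIgG IP point where either gene had 0 counts. Slit3 to Slit2 is 0.425 to 0.476 in the input and 2.26 to 2.47 in the p-UPF1 IP.

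The rIgG IP, the control for the antibody, was too shallow to read most of these genes. Of the 72 genes, 43 had no count in any rIgG IP library and 2 had at least 3 in each. Relative to the rIgG IP, 36 genes were tested, and 5 were both higher and enriched (13.9%, against 17.9% of all 12033 genes tested for higher and 17.5% for enriched). None was lower or depleted in edgeR, against 5.59% and 5.34% of all, none had an unadjusted p under 0.05 in that direction (0 of 36), and DESeq2 called 0.

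The 5 genes were Unc5b, Slit3, Sema4b, Plxnd1 and Plxnb1, all of which were also higher than the input. Unc5b had 16, 3 and 3 rIgG IP counts (log2 fold change 1.84 ± 0.30, edgeR adjusted p = 4.82e-05) and Slit3 had 7, 3 and 1 (1.58 ± 0.37, edgeR adjusted p = 2.56e-03). Unc5b and Slit3 kept their calls under every alternative. Sema4b had 1, 3 and 0 counts (2.02 ± 0.59), Plxnd1 1, 2 and 0 (2.05 ± 0.69) and Plxnb1 1, 0 and 0 (2.81 ± 0.96), and each of these 3 lost its call under DESeq2 and under the GC offsets. Leaving out rIgG IP library 1 or 3 ended all 3 calls, which left Unc5b and Slit3, and Plxnb1 lost its call without any 1 of 5 libraries (p-UPF1 IP 2 or 3, or any rIgG IP library). Slit2 and Unc5c, lower than the input, gave 0.23 ± 0.41 and -0.42 ± 0.28 over the rIgG IP and did not pass.

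The median log2 fold change over the rIgG IP was 1.22, against 0.89 for all genes tested, and it was 0.49 against 0.18 with genes at 0 in 1 group set to their bound, which 9 of the 36 were. In the rIgG IP over the input, 42 genes were tested and none was called higher, lower, enriched or depleted by edgeR. Among all 16280 genes, 0.584% were higher or enriched and 0.313% lower or depleted. Of the 42, 2 had an unadjusted p under 0.05 in edgeR, and DESeq2 called 1, Ephb2, which rests on 2, 2 and 0 rIgG IP counts. Their median was -0.63, against -0.84 for all genes. Both comparisons that use the p-UPF1 IP share its libraries, and both that use the rIgG IP share those.

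The annotated features of NMD targets were found among both higher and lower genes. In the most-counted coding transcript, 56.5% of the 46 tested genes had an upstream ATG, against 49.7% of 12316 genes. Coding transcripts with an exon junction over 50 nt past the stop codon are mostly annotated as NMD targets and could not be counted this way. Of Sema4g (higher), such an NMD-annotated isoform, ENSMUST00000130549.7, with its last junction 221 nt past the stop codon, held 55, 53 and 33 input counts and 24, 0 and 20 p-UPF1 IP counts. The 3′ UTR of the higher genes had a median of 1147 nt (365 to 3158) and that of the lower genes 1359 nt (52 to 6352). Slit3 has 365 nt and Slit2 1270 nt, and Unc5b has 2615 nt and Unc5c 6352 nt. Among the 24 tested genes with at least 100 input counts, the medians were 1147 nt for the higher and 2390 nt for the lower genes. The rank correlation of 3′ UTR length with the log2 fold change was -0.31 over these 24 genes, -0.13 over the 46 and 0.12 over 12316 genes. Upstream ATGs had a median of 1 (0 to 25) in the higher and 2 (0 to 9) in the lower genes. For their number, the rank correlation was -0.42 over the 24 genes, -0.07 over the 46 and 0.01 over 12316 genes. These correlations are a description over genes that share their libraries.

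GC content moved with the log2 fold change. Among the 24 tested genes with at least 100 input counts, the 8 lower genes had a GC content of 44.4% to 52.2% in the most-counted coding transcript, and 12 of the 13 higher genes were above that range (52.6% to 62.7%). Efna5, at 44.8%, was the other. The rank correlation was 0.67 over these 24 genes, 0.31 over all 46 and 0.41 over 12316 genes. The part of GC content in the recovery of fragments was not tested beyond the GC offsets, under which Slit3, Sema4b, Sema4c, Sema3g, Plxnb1, Unc5b, Epha5, Ephb3 and Efna5 were still higher.

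**Figure D4:**
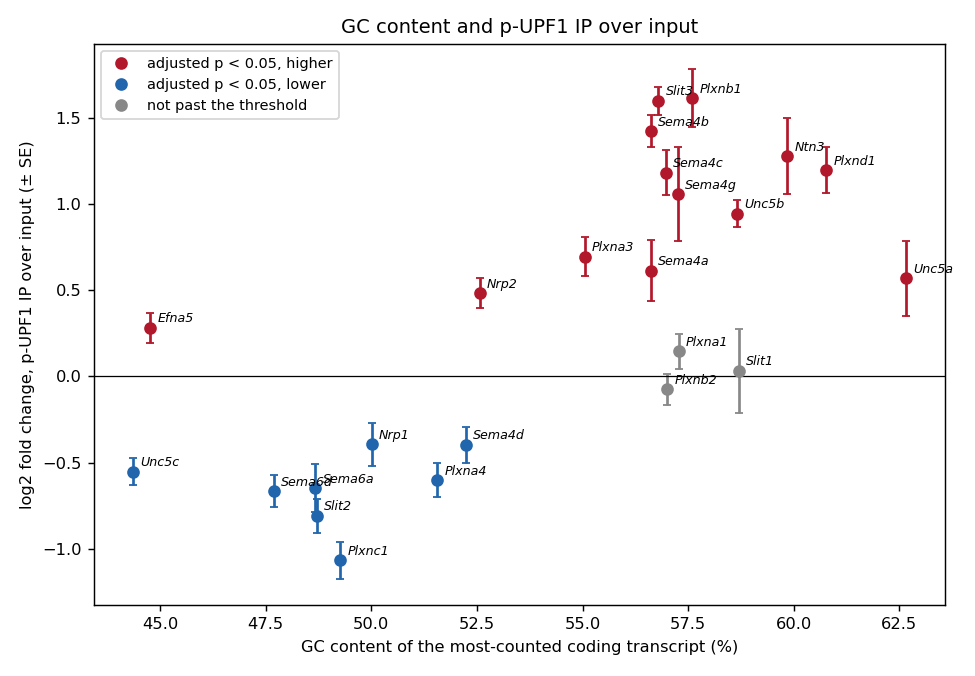
GC content of the most-counted coding transcript (x axis) against the log2 fold change of the p-UPF1 IP over the input (y axis; bars, SE) for the 24 tested genes with at least 100 input counts. All 8 lower genes (blue) lie at or under 52.2% GC and 12 of the 13 higher genes (red) above it, with Efna5 (44.8%) apart.

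Within genes, the authors' assignment of counts to isoforms shifted towards long 3′ UTRs in some members, as in many other genes, as seen after the values were examined. The 3′ UTR length weighted by the counts of coding transcripts could be taken for 9 genes with at least 20 counts in each input and p-UPF1 IP library and annotated lengths that differ by at least 100 nt. It was longer in every p-UPF1 IP library than in every input library for 4 of the 9 (44.4%, against 32.8% of 2273 genes) and shorter for 0 (against 18.0%). With only 9 genes, a difference of the members from all genes was not tested. For Sema6d it was 1603, 1540 and 1390 nt in the input and 2460 nt in each p-UPF1 IP library. Efna5 went from 2549 ± 47 to 3158 nt, Nrp2 from 2378 ± 77 to 2812 ± 229 nt and Unc5c from 4661 ± 43 to 6177 ± 303 nt (SD, n = 3).

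Behind the values of Sema6d and Efna5 stood short isoforms with no p-UPF1 IP counts. The Sema6d transcript ENSMUST00000103238.1, annotated with no 3′ UTR, had 122, 116 and 149 input counts and 0 in every p-UPF1 IP library. The Efna5 transcript ENSMUST00000078839.4, with a 3′ UTR of 23 nt, had 119, 101 and 94 against 0. Both were lower in a test of transcripts (edgeR adjusted p = 1.87e-03 and 2.82e-03), and neither passed with the replicate number as a block (0.0973 and 0.113). Salmon divides fragments among isoforms that share sequence, so that these counts are estimates. For Nrp2, ENSMUST00000102822.8 had 81, 86 and 0 p-UPF1 IP counts and ENSMUST00000075144.11 had 0, 0 and 136, so that the assignment changed between replicate libraries.

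**Figure D5:**
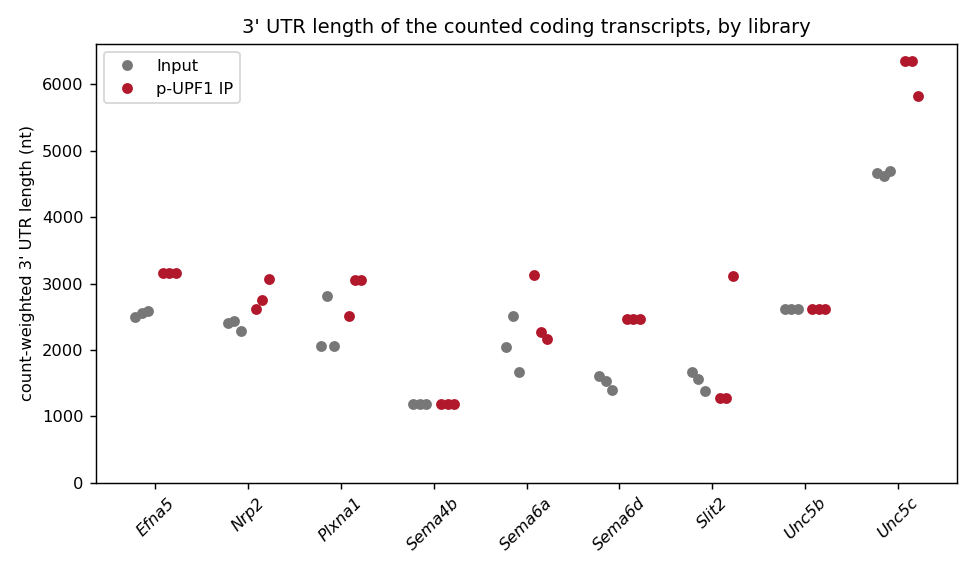
Count-weighted 3′ UTR length (nt, y axis) in each input (grey) and p-UPF1 IP (red) library for the 9 genes it could be taken for. The groups do not overlap for Efna5, Nrp2, Sema6d and Unc5c, and Slit2 has 1 p-UPF1 IP library at 3116 nt and the others at 1270 nt.

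Slit3, Slit2, Sema6d and Efna5 are on the study's list of NMD targets, which was drawn up partly from these libraries and is not independent evidence. Summed per gene, Slit3 and Efna5 were higher in the p-UPF1 IP than in the input, and Slit2 and Sema6d were lower. The study quantified its IP per transcript and also required a rise after UPF1 knockdown, so that a sum per gene is not its measure. Isoforms of Sema6d went both ways, with ENSMUST00000076335.11 at 1.14 and ENSMUST00000103241.7 at -2.43. Neither passed the test of transcripts (edgeR adjusted p = 0.0697 and 0.1685). Of Slit3, 90, 114 and 106 p-UPF1 IP counts were in a processed transcript of 1218 nt (ENSMUST00000124438.1, 72, 87 and 88 in the input) and 111, 156 and 153 in the full coding transcript. Of Slit2, the NMD-annotated isoform ENSMUST00000033967.14, with its last junction 1725 nt past the stop codon, had 124, 68 and 149 input counts and 0 in the p-UPF1 IP. Another isoform annotated as an NMD target, ENSMUST00000173686.2, had 49, 73 and 52 input counts and 14, 10 and 10 in the p-UPF1 IP. A coding isoform of the same gene, ENSMUST00000174421.7 (7785 nt), had 0 input counts and 38, 57 and 11 in the p-UPF1 IP. The similar coding isoform ENSMUST00000170109.8 (7758 nt, with the same 3′ UTR length of 1270 nt) did the reverse, with 236, 208 and 238 input counts and 0 in the p-UPF1 IP. In the test of transcripts, the former was higher and the latter lower (edgeR adjusted p = 0.0140 and 8.79e-04). Neither passed with the replicate block (0.107 and 0.0649). How Salmon divided fragments between these isoforms was not tested.

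Genes that act beside or after these receptors went both ways. Of 74 listed co-receptors, effectors and cytoskeletal regulators, 65 were tested over the input, with 26 higher and 23 lower (against 26.3% and 35.7% of all genes), 15 enriched and 11 depleted (against 17.3% and 26.5%), and a median log2 fold change of 0.03. Collapsin response mediators, which act after semaphorin receptors, ranged from Dpysl5 at 2.17 ± 0.11 to Dpysl2 at -1.34 ± 0.11. Dpysl3, the most counted of them, was higher (0.73 ± 0.06). Crmp1 did not pass (-0.17 ± 0.07), and Dpysl4 had no count. The LIM kinases Limk1 (1.10 ± 0.09) and Limk2 (1.80 ± 0.08), which phosphorylate cofilin, were higher, and cofilin itself (Cfl1, -1.94 ± 0.08) was lower. Of the small GTPases, Rac1 (-2.49 ± 0.09), Cdc42 (-2.46 ± 0.09) and Rhoa (-0.45 ± 0.09) were lower and Rnd1 (1.55 ± 0.15) was higher. Over the rIgG IP, 14 of 63 were higher and 4 were lower (against 17.9% and 5.59% of all genes), and edgeR called none of 64 in the rIgG IP over the input (against 0.584% and 0.313%). The genes named in this paragraph were picked after their values were seen. Their values under library totals and the GC offsets are not given here.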

How the data were processed

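The authors trimmed reads with fastp, mapped them with STAR 2.7.0f to GRCm38 and quantified GENCODE transcripts with Salmon 0.13.1, and deposited estimated counts per transcript, whole numbers that are not scaled for library size. Columns were assigned to libraries from their headers, and all had a library. Counts were summed per gene symbol and rows with a summed count of at least 10 were tested with edgeR 4.0.16 in R 4.3.3 (TMM, quasi-likelihood test, 6 libraries per comparison, Benjamini-Hochberg adjustment over all genes). The standard error is the log2 fold change divided by the root of F. CPM values for genes are TMM-scaled. The procedure was tested on simulated data.

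The genes, lists and tests were chosen with earlier results of these data known. Named genes were those called over the input (at most 30), 4 on the study's list of NMD targets, the most-counted gene of each family and up to 10 called over the rIgG IP. Transcript features came from GENCODE M21, not the release the authors used. Replicate libraries differed by more than sampling noise (chi-square per degree of freedom 3.62 to 15.6), and none was counted as a copy. Alternatives were RLE factors, library totals, DESeq2 1.42.0, filterByExpr, no filter, all 9 libraries, a replicate block, transcripts, each library left out and, added after seeing the data, GC offsets. Statements that a single gene kept or lost its call refer to the alternatives on summed counts, not to those on transcripts. Ratios of counts and 3′ UTR lengths had no test. Other data of the study are not analysed here. One marker of the cell line is not reported here.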

Additional observations from a re-analysis of the deposited data

How the results depend on the processing

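Of the 30 genes called over the input, 12 kept their call under every alternative on counts summed per gene, 11 lost it in 1, 4 in 2 and 3 in over 2. These alternatives, at most 14 for a gene, leave out the tests of transcripts, in which far fewer genes passed. In the p-UPF1 IP over the input, a test of transcripts gave 8 higher, 7 enriched and 9 depleted genes, and one with a replicate block gave 1 of each of higher, lower, enriched and depleted. Library totals gave 5 lower, 20 enriched and a median of 0.83 (all genes -0.01), and filterByExpr 1 depleted. No filter gave a median of -0.12 (all genes -1.42), and the GC offsets 9 higher, 3 enriched and a median of -0.22 (all genes -0.38). Among single genes, Sema4d (0.00888), Nrp1 (0.0128) and Plxnb2 (0.33) changed sign with library totals and Unc5a with the GC offsets (-0.47), and Plxnb2 ranged from -0.126 to 0.0137 with 1 library left out (positive without p-UPF1 IP library 2). Leaving out 1 library gave 17 to 19 higher, 9 to 11 lower, 11 to 14 enriched, 3 to 4 depleted and a median of 0.35 to 0.56 (all genes -0.41 to -0.31).

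Over the rIgG IP, 3 genes were higher and enriched with RLE factors, filterByExpr, the replicate block and transcripts with the block, and 2 with DESeq2 and the GC offsets. Leaving out 1 library gave 2 to 5, 0 lower or depleted and a median of 1.10 to 1.47 (all genes 0.75 to 1.60). filterByExpr gave 1 lower gene, and no filter gave 1 lower and depleted gene. In the rIgG IP over the input, DESeq2 and no filter gave 1 higher and enriched gene, and filterByExpr, no filter, all 9 libraries together and transcripts with the block gave 1 lower and depleted gene. Leaving out 1 library gave 0 to 1 in each direction (1 lower without input library 2 and 1 higher without input library 3). The median was then -1.37 to -0.52 (all genes -4.09 to -0.63), and 0.30 in DESeq2 (all genes 0.25). The causes were not tested, beyond fewer genes being tested with filterByExpr.

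Same-numbered libraries did not deviate together (correlations of -0.01 to 0.05 in the p-UPF1 IP over the input, -0.03 to -0.01 and -0.02 to -0.01 in the others), and the replicate numbers were not taken as pairs. With the number as a block, 18 genes were higher and 10 lower over the input, and 3 higher over the rIgG IP. Depth limits the rIgG IP comparisons most.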
